A study of Mus musculus with 6 samples.

Results

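Major urinary proteins (Mups) were followed in liver RNA of WT and Sec15 KO mice through every array probe whose transcript accession belongs to Mup1, Mup2, Mup3, Mup4, Mup5, Mup6, Mup7, Mup10, Mup20 or Mup21. Of these 10 genes, 7 were matched to a probe, and they held 9 of the 39429 non-control probes of the array, which name 20659 genes in all. Mup4 and Mup20 had 2 probes each, while Mup1, Mup7 and Mup10 matched no probe and were not analysed here. Mup17, Mup18 and Mup19, which stand outside the list, had 1 probe each and served as the closest comparison.

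The samples were total RNA from the livers of male mice, all 6 weeks old and untreated. The genotype was given as WT for 3 samples and as Sec15 KO for 3, and each was hybridised to its own Cy3-labelled array. Sec15 belongs to the exocyst, a protein complex that holds vesicles at the cell surface before they fuse. Strain, the gene and exons deleted (Exoc6 and Exoc6b both encode Sec15) and any Cre driver are not given in the sources used here. The labels do not say that each sample is a separate animal, and p-values then reflect the scatter of these samples alone, which may be technical. The file names of WT replicates 1 and 2 carry the same number and may refer to 1 animal.

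Mups are small secreted lipocalins, proteins with a barrel fold that holds a hydrophobic ligand. Hepatocytes make them in large amounts, release them into blood, and the kidney passes them into urine, where they carry volatile pheromones and act as scent signals themselves. In liver, Mup transcription follows the pulses of growth hormone typical of males through the receptor Ghr, the kinase Jak2 and the transcription factor STAT5, and it also responds to androgen, glucocorticoid and thyroid hormone. The family is a tandem array of near-identical copies, and the RefSeq table (GRCm38.p6) lists 22 Mup genes, all on chromosome 4, beside 24 symbols of Mup pseudogenes. Probes of such copies may share signal, so the 9 probes are not 9 independent genes.

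The copies resemble each other upstream of their starts too, which the promoter sequences show. Of the 7 genes with a probe, 5 had an entry in the RefSeq promoter table. The 150 bases before the annotated start are printed 5′ to 3′, with the TATA box (TATATAA) in capitals. They are shown because the probe of Mup21 and 1 of the 2 probes of Mup4 fell in KO liver. The other Mup4 probe (log2 difference -0.02) and the probes of Mup2, Mup3 and Mup6 did not pass the test.
Mup4 (GRCm38.p6, chr4:59960668-59960817, minus strand): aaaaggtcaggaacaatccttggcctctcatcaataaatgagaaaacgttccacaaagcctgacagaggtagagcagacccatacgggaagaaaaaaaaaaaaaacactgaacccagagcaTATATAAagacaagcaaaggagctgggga
Mup21 (GRCm38.p6, chr4:62150842-62150991, minus strand): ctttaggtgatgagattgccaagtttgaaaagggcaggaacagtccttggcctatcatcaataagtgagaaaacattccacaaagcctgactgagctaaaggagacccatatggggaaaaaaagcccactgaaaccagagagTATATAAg
Mup3 (GRCm38.p6, chr4:62087318-62087467, minus strand): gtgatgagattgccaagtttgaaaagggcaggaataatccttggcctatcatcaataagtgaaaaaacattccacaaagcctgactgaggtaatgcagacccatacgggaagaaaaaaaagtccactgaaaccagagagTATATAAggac
Mup6 (GRCm38.p6, chr4:60003331-60003480, plus strand): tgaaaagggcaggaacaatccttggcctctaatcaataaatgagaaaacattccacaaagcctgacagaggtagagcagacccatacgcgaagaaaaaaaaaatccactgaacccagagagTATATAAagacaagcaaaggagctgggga
Mup2 (GRCm38.p6, chr4:60139857-60140006, minus strand): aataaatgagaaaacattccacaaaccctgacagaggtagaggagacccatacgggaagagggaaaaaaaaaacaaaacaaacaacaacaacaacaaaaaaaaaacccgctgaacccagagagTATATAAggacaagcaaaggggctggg

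Over the 250 bases before the start, Mup21 and Mup3 were identical at 229 of 244 aligned bases (93.9%), and Mup4 and Mup6 at 229 of 248 (92.3%). Mup21 and Mup4, the genes of 2 called probes, matched at 191 of 223 (85.7%). Among these 5, Mup21 was thus closest to Mup3 and Mup4 to Mup6. These shares leave out gap positions (12 for Mup21 and Mup3, 4 for Mup4 and Mup6, 54 for Mup21 and Mup4). Whether likeness of promoters goes with the fall was not tested. The TATA box began 29 bases before the annotated start in Mup4 and Mup6 and 27 in Mup2. In Mup3 it began 11 bases before the annotated start, and in Mup21 8. The windows are placed by the annotated starts, so such offsets add gap positions to the alignments. Whether the annotated starts are those used in liver is not known here. In the windows of 300 bases (250 before to 50 after the start, both strands), TATATAA stood in 3.24% of 32851 promoters. ATCAAT, a core of the sites bound by the hepatocyte factor HNF6, stood 2 times in each of the 5 windows and at least once in 7.54% of all promoters, and the STAT-type palindrome TTCNNNGAA in none of the 5 and in 8.30% of all. AGAACA, a half-site of the glucocorticoid receptor, stood in Mup3 and Mup21 and in 19.0% of all promoters. These are matches of letters in short windows and do not show binding.

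Values below are the log2 of the processed signal after the 75th percentile of the same array was subtracted, so 0 is the 75th percentile of that array's probes and each unit is a doubling. No level of 1 probe is read as higher or lower expression than that of another. The differences within an array between probes of the same gene, the brightness ranks and the summed signals serve only to compare arrays or to describe the probe set. WT and KO were compared with limma over the 27057 probes whose signal was well above background on 3 or more arrays, with Benjamini-Hochberg adjustment over all of them at a threshold of 0.05. All 9 Mup probes passed the filter, and their 54 spots were well above background with none saturated or set aside as an outlier. By the scan times in the headers, the WT arrays and KO replicate 2 belong to a first scan and KO replicates 1 and 3 to a second. Between 64.8% and 70.3% of probes per array were well above background, and the number of arrays (6) limits the precision. The Sec15 genes give no check of the genotype: the only one of their 3 probes well above background in both groups, A_55_P1997415 of Exoc6b, was lower in KO by 0.53 on the log2 scale (limma adjusted p = 0.0436), and whether it lies in the deleted part is not known.

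Mup signal was lower in Sec15 KO liver on all 9 probes by group mean (on 8 of 9 with each array's median as the centre), and the fall passed the test on 3 of them, none being higher. Those 3 probes belong to Mup4, Mup5 and Mup21. Across all 27057 probes, 28.6% were called, 11.6% as lower and 17% as higher in KO. The median log2 difference of the 9 Mup probes was -0.33, against 0.08 over all probes and 0.29 over the brightest 2706 probes, to which 8 of the 9 belonged. Of those 2706 probes, 3.95% were called lower and 36.4% higher. All 3 KO values lay below all 3 WT values on 6 of the 9 Mup probes, and on 19.6% of all probes, while the reverse held for none of the 9 and for 30.6% of all.

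**Figure D1:**
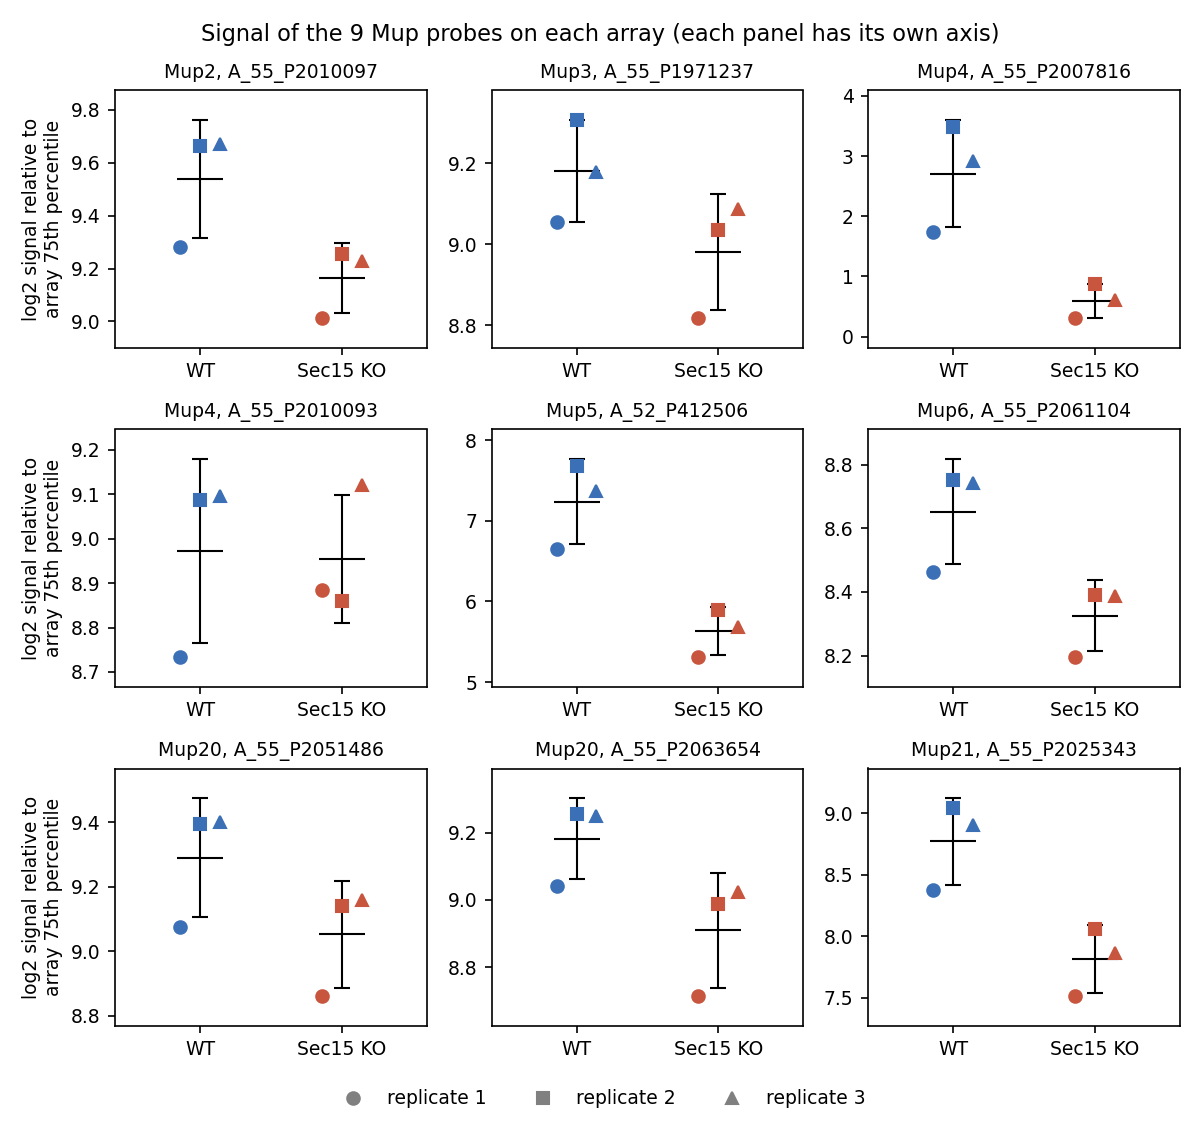
Log2 signal relative to the array's 75th percentile for the 9 Mup probes, with a separate vertical axis in each panel. Points are arrays, their shape is the replicate number, and the bar is the group mean with its SD (n = 3). KO arrays lie below all WT arrays on 6 probes, and WT replicate 1 is the lowest WT array on all 9.

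Mup5 encodes a Mup known mainly from glands such as the lacrimal and salivary glands. Its probe A_52_P412506 read 6.65, 7.68 and 7.37 in WT replicates 1 to 3 and 5.31, 5.90 and 5.68 in KO replicates 1 to 3. All KO arrays lay below all WT arrays, with a gap wider than the range within KO. The group means were 7.24 ± 0.53 in WT and 5.63 ± 0.30 in KO (SD, n = 3 each), a fall of 3.05-fold (log2 difference -1.61, SE 0.30, 95% interval -2.33 to -0.88, limma adjusted p = 0.0164). Among the brightest 2706 probes, 18 had a larger fall.

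Mup21 is the last Mup gene of the cluster in the RefSeq order. Its probe A_55_P2025343 read 8.37, 9.04 and 8.90 in WT and 7.51, 8.06 and 7.87 in KO, replicates 1 to 3 in order. The groups did not overlap, and WT replicate 1 stood nearest to the KO arrays. Signal averaged 8.77 ± 0.35 in WT and 7.81 ± 0.28 in KO (SD, n = 3 each), 1.94-fold lower (log2 difference -0.96, SE 0.23, 95% interval -1.51 to -0.41, limma adjusted p = 0.0287). A larger fall was measured on 46 of the brightest 2706 probes.

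Mup4, the first Mup gene of the cluster in the RefSeq order, is known for its expression in the nasal and lacrimal glands and binds a pheromone tightly. Its probes gave different answers. Probe A_55_P2007816 read 1.73, 3.48 and 2.91 in WT and 0.31, 0.87 and 0.61 in KO. WT spanned 1.74 log2 units, from replicate 1 to replicate 2, yet no KO array reached the lowest WT array. The means were 2.71 ± 0.89 and 0.60 ± 0.28 (SD, n = 3 each), a fall of 4.31-fold (log2 difference -2.11, SE 0.45, 95% interval -3.20 to -1.02, limma adjusted p = 0.0223).

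The other Mup4 probe, A_55_P2010093, read 8.73, 9.09 and 9.10 in WT and 8.88, 8.86 and 9.12 in KO. The groups overlapped fully, and the lowest and the highest array were WT replicate 1 and KO replicate 3. The difference was -0.02 (SE 0.14, 95% interval -0.37 to 0.34, limma adjusted p = 0.933), and it turned positive with median centring (0.10) and without WT replicate 2, WT replicate 3, KO replicate 1 or KO replicate 2 (0.02 to 0.04). Within each array, the first probe minus the second was -7.00, -5.61 and -6.18 in WT and -8.58, -7.99 and -8.51 in KO. These differences did not overlap, with a KO minus WT difference of -2.09 and an exact two-sided permutation p of 0.1, the smallest that 3 against 3 arrays can give (0.2 after Benjamini-Hochberg adjustment over the 2 same-gene pairs). The accession alone does not tell which Mup transcripts either probe binds.

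The 2 probes of Mup20, whose product darcin is the Mup that attracts females to male scent, did not pass the test. Probe A_55_P2063654 read 9.04, 9.26 and 9.25 in WT and 8.71, 8.99 and 9.02 in KO. No KO array reached a WT array, although KO replicate 3 and WT replicate 1 were nearly level. Its difference was -0.27 (SE 0.13, 95% interval -0.59 to 0.04, limma adjusted p = 0.149). Probe A_55_P2051486 read 9.08, 9.39 and 9.40 in WT and 8.86, 9.14 and 9.16 in KO. Here WT replicate 1 fell within the KO arrays, and the difference was -0.24 (SE 0.14, 95% interval -0.59 to 0.11, limma adjusted p = 0.240). The first probe minus the second differed by -0.04 between KO and WT (exact two-sided permutation p = 0.7, and 0.7 adjusted over the 2 pairs).

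Mup2 and Mup6, liver Mups that lie near Mup4 in the RefSeq order, were lower by group mean without passing the adjusted threshold. Mup2 probe A_55_P2010097 read 9.28, 9.66 and 9.67 in WT and 9.01, 9.25 and 9.23 in KO. The groups stood apart by a narrow gap between WT replicate 1 and KO replicate 2. The difference was -0.37 (SE 0.15, 95% interval -0.73 to -0.01, limma adjusted p = 0.102). Mup6 probe A_55_P2061104 read 8.46, 8.75 and 8.74 in WT and 8.20, 8.39 and 8.39 in KO, again without overlap (difference -0.33, SE 0.13, 95% interval -0.63 to -0.02, limma adjusted p = 0.0954). Mup6 passed the threshold under quantile normalisation (adjusted p = 0.0369), and both probes did under normexp with quantile normalisation (adjusted p = 0.027 for Mup2 and 0.0314 for Mup6), cyclic loess and array weights. Mup2 also did so without WT replicate 1 (adjusted p = 0.0426). Array weights called 21172 of all 27057 probes.

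Mup3, a liver Mup next to Mup21 in the RefSeq order, read 9.05, 9.31 and 9.18 in WT and 8.82, 9.04 and 9.09 in KO on probe A_55_P1971237. KO replicate 3 lay above WT replicate 1, so the groups overlapped. The difference was -0.20 (SE 0.12, 95% interval -0.50 to 0.10, limma adjusted p = 0.243).

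The 3 Mup genes outside the list gave values of the same order. Mup17 (A_55_P2076196) averaged 9.71 ± 0.22 in WT and 9.50 ± 0.14 in KO (SD, n = 3 each). Mup18 (A_55_P1987403) averaged 9.54 ± 0.21 and 9.39 ± 0.11, and Mup19 (A_55_P1974080) 9.94 ± 0.13 and 9.78 ± 0.10. On each of them the WT and KO arrays overlapped, the differences lay between -0.21 and -0.15, and none passed the test (limma adjusted p between 0.291 and 0.422). Their intervals reached from -0.57 to 0.19 and overlap that of Mup21; the difference between these genes and Mup21 or Mup5 was not tested.

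**Figure D2:**
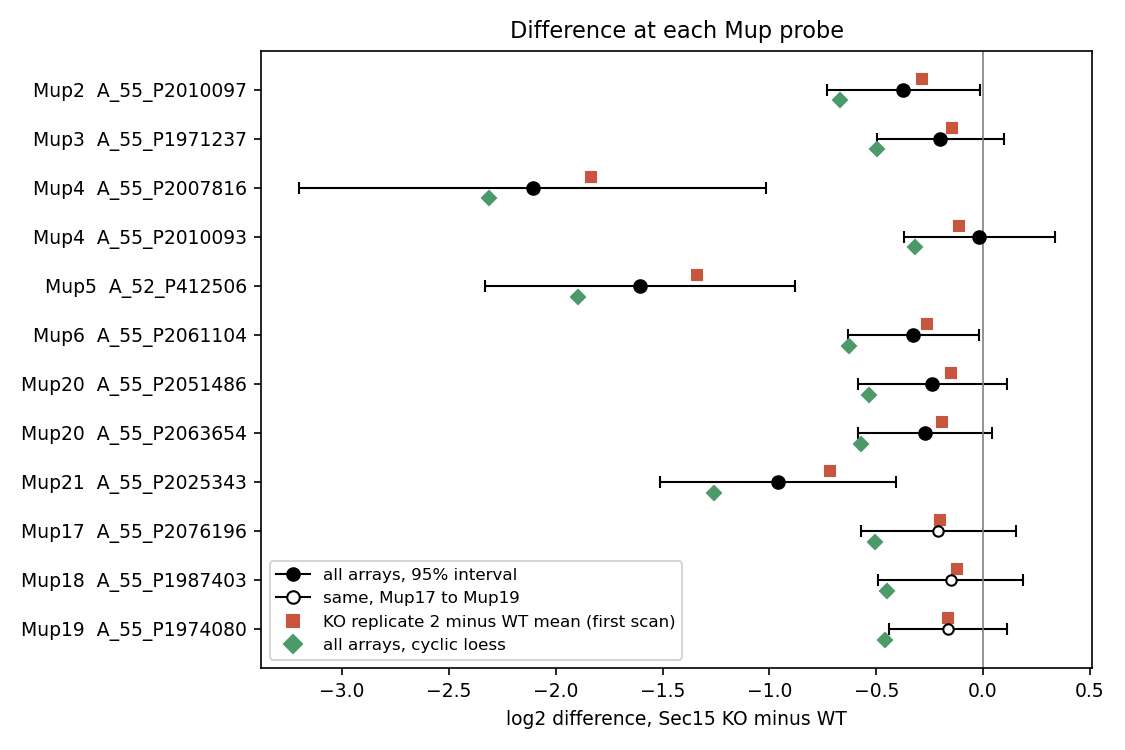
Log2 difference (Sec15 KO minus WT) at each Mup probe, with the 95% interval of limma over all arrays (circles, open for Mup17 to Mup19), KO replicate 2 minus the WT mean within the first scan (squares) and the difference after cyclic loess (diamonds). The probes of Mup5 and Mup21 and 1 probe of Mup4 lie left of the others, and the squares lie left of 0 on every probe.

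The probes also moved together within a genotype. WT replicate 1 was the lowest WT array on 9 of 9 Mup probes, by 0.21 (Mup20) to 1.74 (Mup4) log2 units against WT replicate 2, and KO replicate 1 was the lowest KO array on 8 of 9. On 4 of the 9 probes the range within WT was wider than the difference between the genotypes. KO replicate 2, scanned with the WT arrays, lay below the WT mean on 9 of 9 probes and below every WT array on 7. It differed from the WT mean by -1.34 for Mup5, -0.71 for Mup21 and -1.83 for Mup4 probe A_55_P2007816. With the scan as a block, these 3 calls ended (limma adjusted p = 0.0991, 0.172 and 0.130), and that comparison rests on KO replicate 2 as the lone KO array. They also ended without any of WT replicates 2 and 3 and KO replicates 1 and 3 (limma adjusted p from 0.0510 to 0.109), where the number of all called probes fell from 7740 to between 355 and 2964.

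The brightness of a probe went with its difference over the whole array. In 20 bins of equal size, the median difference ran from -0.43 in the dimmest bin to 0.27 in the brightest, while the Mup probes stood below that trend. After cyclic loess, which removes differences that follow brightness, the Mup median was -0.63 with the median of all probes at 0.00. Cyclic loess called 3221 of all 27057 probes lower. In that setting 8 of the 9 Mup probes were called lower, all but A_55_P2010093 of Mup4 (difference -0.32, adjusted p = 0.0878). Mup17, Mup18 and Mup19 were called as well in that setting, at -0.51, -0.45 and -0.46. With median centring the Mup median was -0.21, that of all probes was 0.19, and the same count of 3 Mup probes was called. The strongest spots of the 9 probes reached between 0.407% (A_55_P2007816 of Mup4) and 27.4% (Mup2) of the scanner's saturation value. For the 3 called probes that share was between 0.407% and 19.3%, and for the other 6 between 14.1% and 27.4%. Whether high signal narrows the differences of the other 6 was not tested.

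**Figure D3:**
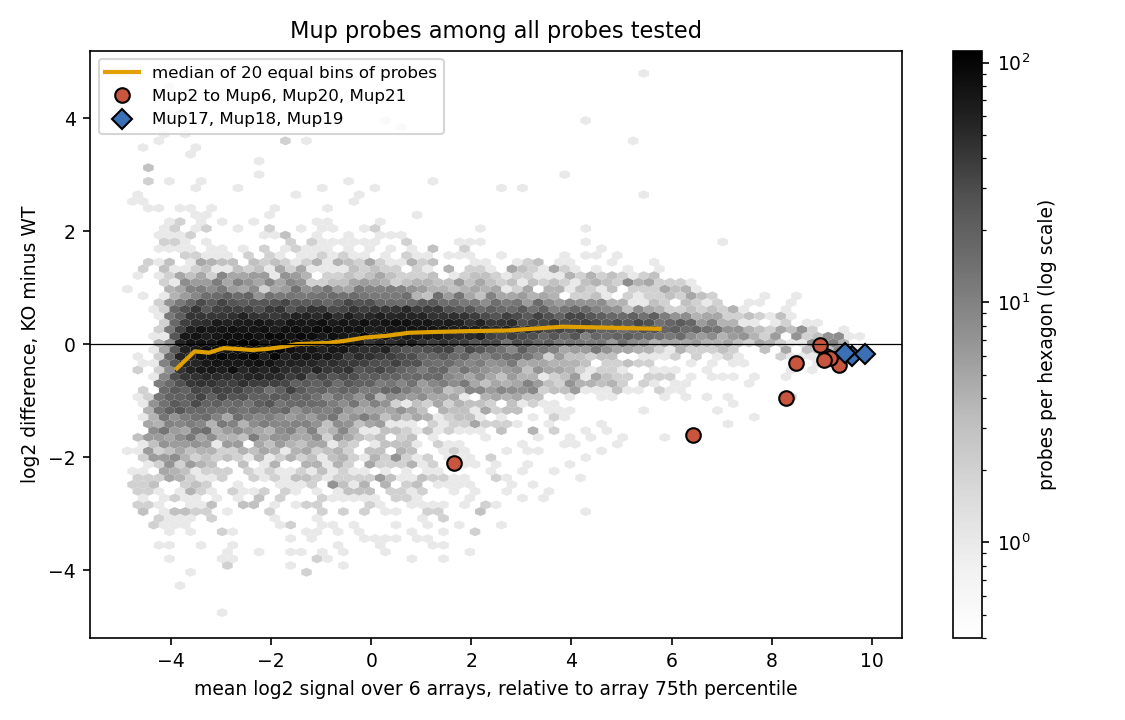
Log2 difference (Sec15 KO minus WT) against the mean log2 signal over 6 arrays for the 27057 probes tested, shaded by probes per hexagon on a log scale, with the median of 20 bins of equal size as a line. The Mup probes (circles) and those of Mup17 to Mup19 (diamonds) lie below the line, most of them at the bright end.

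Mup genes belong to the genes that male liver expresses more than female liver, so other sex-biased liver genes were set beside them. These lists, and those that follow, were chosen with earlier results of these data known, and each gene is represented by its brightest probe. Of 23 measured male-biased genes other than Mups, 10 fell and none rose (median log2 difference -0.61). Over all probes, 11.6% were called lower and 17% higher. Capn8 of this list, named after its values were seen, was well above background on 3 arrays only and was not called. Its mean was higher in WT (-3.42) than in KO (-4.72), so it gives no independent support to the direction. The smallest p-values among the male-biased genes were those of Cyp4a12a, Cyp4a12b (both hydroxylases of fatty acids) and Hsd3b5, a steroid dehydrogenase. Hsd3b5 read 4.41, 4.87 and 4.61 in WT and 3.24, 3.51 and 3.51 in KO, without overlap and with a gap wider than the range within either group. The male-biased genes Slco1a1, Ugt2b1 and C8b, named after their values were seen, were between 0.03 and 0.07. With the filter set to all 6 arrays and the fit repeated, 18 female-biased genes were measured, of which 11 rose and 1, Adam11, fell (median 0.92), the smallest p-values being those of Cyp2b10 and Cyp39a1. A further 4 (Cux2, Slc22a27, Abcd2 and Cyp2b9) were well above background on 3 or 4 arrays only, and their mean signal was lower in WT than in KO, so they give no independent support to the direction. With them, 14 of 22 were called higher (median 1.11), and counts under other settings include them. With the scan as a block, 7 male-biased genes were called lower and 8 female-biased genes higher. Leaving out 1 array gave 2 to 10 male-biased genes called lower (2 without WT replicate 3, 3 without KO replicate 3 and 6 without WT replicate 2). For female-biased genes called higher it gave 4 to 16, with 4 without WT replicate 3 and 8 without KO replicate 3.

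Of 22 measured genes of growth hormone signalling and other regulators of Mup transcription, 5 rose and 1 fell (median 0.09, and -0.09 after cyclic loess, where 2 were higher and 2 lower). That is a share near the 28.6% called over all probes. Without WT replicate 3 none of the 22 was called, without KO replicate 3 only 1 (lower), and with the scan as a block 2 were higher and 1 lower. Socs3, an inhibitor of cytokine signalling, read between 1.09 and 1.55 in WT and between 0.07 and 0.16 in KO (log2 difference -1.21, SE 0.14, limma adjusted p = 0.00697). Its relative Socs2, a STAT5 target that dampens the growth hormone receptor, rose by 0.80 (SE 0.13, limma adjusted p = 0.0125). The transcription factor gene Cebpb rose by 0.69 (SE 0.10, limma adjusted p = 0.00951). Hnf4a, a hepatocyte transcription factor gene, and Nr3c1, the glucocorticoid receptor gene, rose as well and are named after their values were seen.

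The growth hormone axis itself is named here after its values were seen, and none of the genes given passed the threshold. The receptor gene Ghr was higher by 0.32 (limma adjusted p = 0.0625), with no overlap between the groups. The transcription factor gene Stat5b, which carries most of the growth hormone signal in liver, was lower by group mean with a difference of -0.62 (adjusted p = 0.131), and its groups overlapped. Stat5a stood at 0.41 (adjusted p = 0.0849) and the kinase gene Jak2 at -0.02 (adjusted p = 0.925). The STAT5 targets Igf1 and Cish stood at 0.13 (adjusted p = 0.463) and -0.83 (adjusted p = 0.109). Stat3 stood at 0.05 (adjusted p = 0.793).

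Of 14 measured lipocalin genes outside the Mups, 2 rose, 3 fell and 9 were not called (median 0.06, and -0.18 after cyclic loess), beside 17% called higher and 11.6% lower over all probes. Lcn2, which captures bacterial siderophores, was 3.33-fold lower in KO (log2 difference -1.74, SE 0.31, limma adjusted p = 0.0157), with 1.62 to 2.80 in WT and 0.29 to 0.79 in KO. Apom, the apolipoprotein that carries sphingosine phosphate, was 1.87-fold higher (SE 0.15 on the log2 scale, limma adjusted p = 0.0134). Lcn10, a lipocalin gene known from the epididymis, was lower by a log2 difference of -1.14 (SE 0.21, limma adjusted p = 0.0161). The other 2 called, named after their values were seen, were Lcn6 (-0.77, adjusted p = 0.0349) and Orm3 (0.53, adjusted p = 0.0433). With the scan as a block, 1 lipocalin gene was called lower and none higher.

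Plasma proteins, which hepatocytes secrete by the same route, served as a check of the labelled tissue. On every array, all 25 measured genes of that list were detected well above background. Of these, 6 rose and 1, Fga, fell (median 0.15, and -0.14 after cyclic loess, where 2 were higher and 4 lower). That share is near the 28.6% called over all probes. Among the brightest 2706 probes, 36.4% were called higher and 3.95% lower. The fibrinogen gene Fgb rose by 0.68 (SE 0.09, limma adjusted p = 0.00853) and the prothrombin gene F2 by 0.58 (SE 0.09, limma adjusted p = 0.0120). Without WT replicate 3 or KO replicate 3, no plasma protein gene and no lipocalin gene outside the Mups was called.

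**Figure D4:**
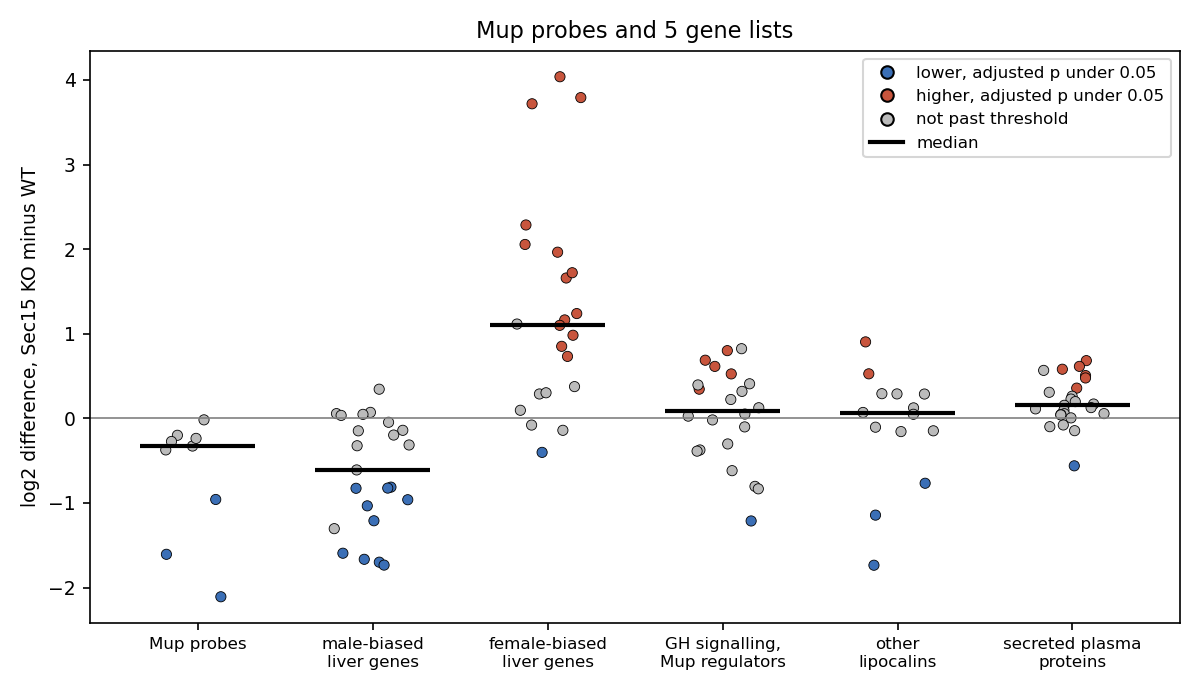
Log2 difference (Sec15 KO minus WT) of the 9 Mup probes and of the measured genes of 5 lists, 1 point per probe or gene, coloured by direction where limma's adjusted p was under 0.05. Bars are medians: -0.33 for the Mup probes, -0.61 for male-biased and 1.11 for the 22 female-biased genes that passed the filter, and 0.06 to 0.15 for the others.

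Markers of other cells were measured beside these genes, and their part in the Mup values was not tested. In bulk RNA, fewer hepatocytes and less Mup RNA per hepatocyte cannot be told apart. Over all probes, 17% were called higher and 11.6% lower. Of 8 erythroid markers well above background on all 6 arrays, 6 rose and none fell (median 1.92). Over the 15 that passed the filter, 10 rose and 1 fell (median 2.01), and the 10 were called higher with the scan as a block and with each array left out. Their summed linear signal, in units of the 75th percentile, was 88.3 to 135 in WT and 384 to 487 in KO.

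Of 15 pancreas acinar markers, 8 fell and 1 rose (median -0.86), beside 11.6% called lower and 17% higher over all probes. Their summed signal was 17.3 to 21.1 in WT and 14.9 to 15.2 in KO. The probe of Amy2a5, the gene called higher, is the brightest of the list and weighs most in that sum. Its means were 2.75 in WT and 3.23 in KO, and it is named after its values were seen. That count of 8 dropped to 0 without WT replicate 3, 2 without KO replicate 3, 3 without WT replicate 2, 4 without KO replicate 1 and 4 with the scan as a block. The calls in the next 3 lists were near the 28.6% over all probes. Kupffer cell markers were called higher in 3 of 11 cases (median 0.37, 35.9 to 36.2 in WT against 47.2 to 62.0 in KO), in none with the scan as a block or without WT replicate 3 or KO replicate 3, and in 8 without KO replicate 2. Liver endothelial markers were called higher in 3 of 10 (median 0.42, 26.7 to 27.7 against 32.8 to 43.1), in 1 with the scan as a block or without KO replicate 1 or KO replicate 3, in none without WT replicate 3 and in 6 without KO replicate 2. Of 9 stellate and bile duct markers, 2 were called higher and 1 lower (median 0.12, and -0.13 without WT replicate 3, where none was called, as without KO replicate 3), with sums of 25.2 to 36.4 against 33.5 to 38.3. The summed signal of the hepatocyte plasma proteins was 7193 to 7743 in WT and 8144 to 9166 in KO, above WT on every KO array. That of the male-biased genes was 1599 to 1892 in WT and 1294 to 1537 in KO, below WT on every KO array. The brightest probes weigh most in the male-biased sum. They are those of Serpina1e and Gstp2, named after their values were seen (WT means 9.50 and 9.02). Neither was called (limma adjusted p = 0.393 and 0.191).

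The genes flanking the Mup cluster were read from the order of the RefSeq table. Of the 10 nearest genes with a probe, 5 on each side, 7 passed the filter. Hsdl2, a peroxisomal dehydrogenase gene before Mup4, rose by 0.79 (SE 0.17, limma adjusted p = 0.0217). The other 6 (Snx30, E130308A19Rik, Slc31a2, Fkbp15, Slc31a1 and Cdc26) did not pass the test and lay between -0.20 and 0.47. None of the 7 was called lower.

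The genes most like the Mups over the 6 arrays were found by the root mean square distance to the median centred Mup profile, among 13742 other named genes well above background on all arrays. The nearest were Sec24a, a subunit of the COPII coat that carries secreted proteins out of the endoplasmic reticulum (0.03 log2 units), Trim56 (0.04), Depdc5 (0.04), Idua (0.05) and Dexi (0.05). Their differences lay between -0.36 and -0.28, and none passed the test (limma adjusted p between 0.0715 and 0.116). Differences near the Mup median of -0.33 follow from the way these genes were chosen. The called probes of Mup4, Mup5 and Mup21 had larger falls (-2.11, -1.61 and -0.96) than that median profile.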

How the data were processed

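Agilent Feature Extraction 11.0.1.1 read each array, per the file headers, and the deposited values are intensity per spot, background-subtracted and not normalised between arrays; other deposited columns are flags of 0 or 1. The array design is annotated on mm9, per the file headers. Outlier spots (178 to 236 per array) were left out and spots of 1 probe averaged. Accessions were matched without version to the RefSeq table of GRCm38.p6 for names and gene order; 27234 of 39429 probes matched 1 symbol. Probes were kept separate and fitted with limma 3.58.1 (lmFit, eBayes) in R 4.3.3 with data.table (version 1.17.8) and jsonlite 2.0.0, without covariates; the script was tested on simulated data. The number of arrays limits the precision.

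Members and lists were chosen with earlier results of these data known. Named were every Mup probe, up to 3 members per list with the smallest p, the 5 nearest profiles and 5 neighbours per side; named exceptions are marked in the text. Same-numbered WT and KO arrays had correlations of deviations of 0.10, 0.11 and 0.02. These values do not settle whether the numbers pair the arrays, and the main fit did not pair them. Alternatives were quantile, median, cyclic loess and normexp (offset 50) normalisation, filters on all 6 arrays and none, trend with robust eBayes, array weights, the replicate number or the scan as a block, the first scan alone, WT replicates 1 and 2 averaged, and each array left out. Normexp was run on the median signal per spot, since a mean signal is not among the deposited columns.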

Additional observations from a re-analysis of the deposited data

How the results depend on the processing

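Mup5, Mup21 and Mup4 probe A_55_P2007816 were lower in KO in all 18 alternatives and kept their call in 12. Array weights called 21172 of all 27057 probes, 9165 of them as lower. Cyclic loess called 3221 probes lower, and normexp with quantile normalisation 2983. Of the 9 Mup probes, 8 were called lower after cyclic loess, 5 with normexp and quantile normalisation and 7 with array weights. None was called with the scan as a block or in the first scan alone, where 2 and 1 had an unadjusted p under 0.05 in limma. Leaving out 1 array gave 0 to 4 calls, the 0 arising without WT replicate 2, WT replicate 3, KO replicate 1 or KO replicate 3, each with 3 probes at an unadjusted p under 0.05. With the replicate number as a block the count stayed at 3 (limma adjusted p = 0.0148 for Mup5, 0.0242 for Mup4 A_55_P2007816 and 0.0181 for Mup21), and 6127 probes were called in all. The median of the Mup probes was -0.63 after cyclic loess, -0.26 with the scan as a block and -0.42 to -0.26 with 1 array left out. Mup4 probe A_55_P2010093 changed sign to 0.10 with median centring and lay between -0.14 and 0.044 with 1 array left out (0.04 without WT replicate 2, 0.044 without WT replicate 3, 0.02 without KO replicate 1 and 0.03 without KO replicate 2).

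Over all probes, 21172 were called with array weights, 2526 with the scan as a block, 0 in the first scan alone (7840 at an unadjusted p under 0.05) and 355 to 12607 with 1 array left out. Of the calls, 4595 were higher and 3145 lower; the split was 5941 and 2534 with median centring and 2946 and 3221 after cyclic loess. The male-biased median was -0.85 with quantile normalisation, -0.90 after cyclic loess, -0.31 with normexp and quantile normalisation and -0.70 to -0.44 with 1 array left out. The female-biased median was 0.59 with normexp and quantile normalisation and 0.75 with the scan as a block or in the first scan alone. The median was 0.92 to 1.26 with 1 array left out. Mup18 and Mup19 were also called with array weights. The causes were not tested.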
